A study of Homo sapiens with 8 samples.

Results

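Of 161291 regions of open chromatin in U-937 cells, 4418 were called with vehicle, with ATRA and with Corin, and by no peak when both compounds were given together. They were chosen by these calls: overlapping peaks of the 4 lists on chromosomes 1 to 22, X and Y were merged into regions, and a region was kept when peaks of the DMSO, ATRA and Corin lists overlapped it and no peak of the list from the joint treatment did. U-937 is a human myeloid leukaemia cell line of monocytic type, and chromatin was assayed in 8 samples, 2 in each of 4 groups. The groups were cells given DMSO as the vehicle, ATRA at 0.1 µM, Corin at 0.1 µM, or both at 0.1 µM each (below, the combination), each for 24 hours. Each group had 1 deposited peak list, so no value below has a spread between replicates, no difference between treatments could be tested, and intervals cover counting error over regions only. The calls chose the regions, so their strength in the lists is a description.

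ATAC-seq finds open chromatin by letting a transposase cut and tag DNA that nucleosomes do not cover, and a peak is a stretch where cuts pile up above the local background. ATRA, all-trans retinoic acid, is the ligand of the retinoic acid receptors, which recruit co-repressors without ligand and co-activators with it, and it drives the maturation of some myeloid leukaemia cells. Corin is a synthetic inhibitor of the CoREST complex, a co-repressor that joins the histone demethylase LSD1 to the deacetylases HDAC1 and HDAC2 and is brought to myeloid genes by GFI1. The factors whose motifs were searched include PU.1 and C/EBP, which set up myeloid enhancers, AP-1, which responds to signals, and CTCF, which anchors chromatin loops.

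The next 4 windows come from some of the strongest of the 4418 regions whose local DMSO background was near the commonest one, and show what DNA the unlisted sites hold. Each is 200 bp around the strongest summit on the plus strand of hg38, with capitals for a match to one of the 15 motifs searched. The match in the RBMS1 window is to PU.1, that near ATF7IP is to C/EBP and then AP-1, and that in the lncRNA window is to C/EBP, while the DDX60L window holds none.
DDX60L intron, chr4:168411687-168411886: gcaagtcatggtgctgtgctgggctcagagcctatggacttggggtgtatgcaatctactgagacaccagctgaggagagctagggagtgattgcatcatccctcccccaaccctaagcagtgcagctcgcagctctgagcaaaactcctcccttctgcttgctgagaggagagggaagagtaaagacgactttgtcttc
RBMS1 intron, chr2:160294403-160294602: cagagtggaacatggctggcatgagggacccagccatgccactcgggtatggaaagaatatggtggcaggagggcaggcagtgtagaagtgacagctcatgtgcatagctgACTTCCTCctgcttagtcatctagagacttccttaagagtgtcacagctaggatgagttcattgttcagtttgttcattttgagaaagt
lncRNA intron, chr7:83359190-83359389: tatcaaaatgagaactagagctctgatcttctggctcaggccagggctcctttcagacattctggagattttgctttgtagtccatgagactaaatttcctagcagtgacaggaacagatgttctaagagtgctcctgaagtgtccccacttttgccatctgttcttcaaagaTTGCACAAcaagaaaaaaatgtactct
Nearest coding gene ATF7IP, chr12:14327789-14327988: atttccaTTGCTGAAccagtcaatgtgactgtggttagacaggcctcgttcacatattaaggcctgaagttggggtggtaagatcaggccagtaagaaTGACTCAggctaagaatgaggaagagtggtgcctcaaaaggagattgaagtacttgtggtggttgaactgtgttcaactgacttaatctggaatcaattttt

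A further 3 windows of 62 bp show the CTCF match, in capitals, of the strongest of the 220 regions that held one. CTCF is shown for its share among the motifs with at least 100 matches. This stood furthest above the share in regions called in all 4 lists once these were weighted by strength. Without that weighting it was not above it.
Nearest coding gene CKB, chr14:103518707-103518768: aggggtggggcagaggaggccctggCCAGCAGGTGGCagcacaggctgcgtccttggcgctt
ADAMTSL4 exon, chr1:150560065-150560126: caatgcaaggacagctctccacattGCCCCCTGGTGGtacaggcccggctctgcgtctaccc
PI4K2B intron, chr4:25180682-25180743: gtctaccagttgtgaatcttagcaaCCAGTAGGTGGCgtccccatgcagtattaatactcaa

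How often a region called in 3 lists was missing from the fourth was compared across the lists. Of 70721 regions called with DMSO, ATRA and Corin, 6.25% (95% Wilson interval 6.07 to 6.43) were absent from the combination list. The same measure was 5.63% for ATRA, 8.20% for Corin and 2.26% for DMSO. The share for the combination therefore lay between those of the single compounds, and 66303 regions were called in all 4 lists. By merged regions the combination list was the shortest, with 94917, against 101851 for Corin, 113914 for ATRA and 116563 for DMSO. With every list reduced to that length, 2578 regions, or 3.90%, were absent only from the combination. The equal-length share was not computed for the other lists. The 4 sets share lists with one another and are set side by side only.

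Absence was found mainly among weak regions. Regions were placed in bands by the lowest percentile of their −log10 p within the lists that held them. Of the 3034 regions in the lowest band, 42.3% (40.5 to 44.0) were absent from the combination, and the share was 29.9%, 18.2%, 7.58%, 1.87% and 0.248% in the next 5 bands. The seventh band had 2 such regions of 8499. In the upper 3 bands the count was 0 of 8291, 0 of 8017 and 0 of 7810, with a Wilson upper bound of 0.0492% in the last. In the lowest band the ATRA list lacked 55.1% and the Corin list 31.4%. In the band from 20 to 30 the order was turned, with 25.3% absent from Corin and 9.44% from ATRA, and the combination again lay between them.

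**Figure D1:**
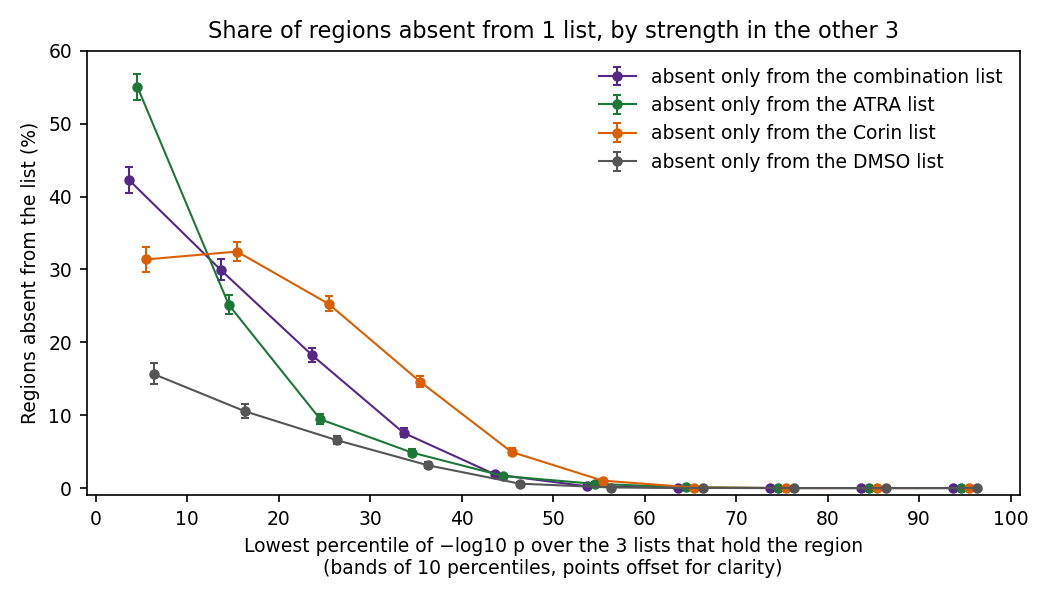
Percent of regions absent from 1 list (vertical axis) against the band of their lowest −log10 p percentile in the other 3 lists (horizontal axis), with 95% Wilson intervals as bars. The combination starts at 42.3%, between ATRA at 55.1% and Corin at 31.4%, and all 4 curves are at 0 above the 70th percentile.

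Within each list that held them, the median member ranked below the middle. Their median percentile was 41.6 in the DMSO list, 23.1 in the ATRA list and 28.2 in the Corin list, and these lists differ in length, so the ranks show no change between treatments. The median fold over local background, as the authors give it, was 4.42 with DMSO, 4.55 with ATRA and 3.13 with Corin, against 8.74, 11.8 and 7.92 for regions called in all 4. The median −log10 p was 28.0, 21.5 and 13.2 in that order. Only 23 members, 0.521%, were above the 50th percentile in all 3 lists, against 61.9% of regions called in all 4. Below it in all 3 were 65.7% of members, against 11.5% of those regions, or 51.7% with these weighted to the members' bands. A single peak made up the region in each of the 3 lists for 42.6% of members, against 19.0% of regions called in all 4, or 30.9% so weighted.

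**Figure D2:**
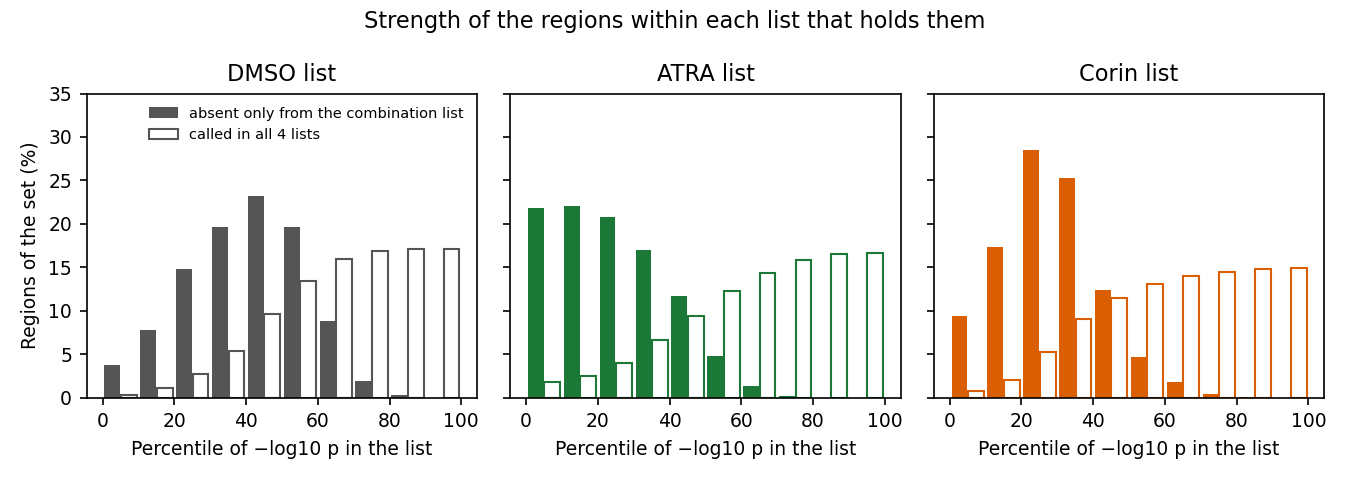
Percent of regions (vertical axis) in each band of 10 percentiles of the −log10 p ranking (horizontal axis) of the DMSO, ATRA and Corin lists, for regions absent only from the combination (filled) and regions called in all 4 lists (open). The members peak between the 40th and 50th percentile with DMSO (23.2%) and between the 20th and 30th with Corin (28.5%), and in the ATRA list 21.9% lie in the lowest band.

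To compare members with retained regions, values of the regions called in all 4 lists were averaged with the members' weights over the bands. This average is called at equal strength below. It matches the lowest percentile over the 3 lists only. Mean −log10 p was 37.8 for members and 36.6 at equal strength with DMSO. With ATRA it was 30.0 and 56.7, and with Corin 19.6 and 36.2. Retained regions so weighted were thus still stronger than members in the ATRA and Corin lists. By −log10 p, 52.5% of members (51.1 to 54.0) were strongest in the DMSO list, against 24.7% at equal strength. The ATRA list was strongest for 34.5%, against 48.8%, and the Corin list for 12.9%, against 26.5%. Members had their highest score with vehicle more often than retained regions did. As the retained regions were still stronger in the ATRA and Corin lists, this contrast is a description. Scores were computed separately for each list, and how far they move with its depth was not tested.

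By fold, 1646 members (37.3%, 35.8 to 38.7) were lower with each compound than with DMSO, against 18.1% at equal strength. A further 1920 (43.5%) were higher with ATRA and lower with Corin, against 44.3%. Only 308 (6.97%) were lower with ATRA and higher with Corin, against 16.0%, and 544 (12.3%) were higher with each, against 21.6%. The fold was lower with Corin than with DMSO for 80.7% of members, against 62.4%, and lower with ATRA for 44.2%, against 34.1%. Both single-compound lists gave folds below DMSO more often for members than for retained regions, and Corin did so for most members. The mean fold of members was 5.25 with ATRA and 3.56 with Corin, against 6.65 and 4.25 at equal strength. These contrasts too are a description.

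How low the scores of the combination list went was read from the list itself. A pileup is the number of overlapping reads or cuts at the summit, solved here from the authors' p and fold. At the commonest background of the combination list, 13.9, a pileup of 23 reached its lowest listed −log10 p of 2.00. Of its regions 1% had a pileup under 29.0 and 10% had one under 40. What else a peak had to meet to be listed is not known. The members' median pileup was 79 with DMSO, 56 with ATRA and 53 with Corin. In all 3 lists 2652 members had a pileup of at least 40, and 961 had at least 3 times that with DMSO. The commonest backgrounds were 12.8 with DMSO, 9.12 with ATRA and 13.1 with Corin, and read depth itself is unknown. A fold can therefore be higher with ATRA than with DMSO where the pileup is not.

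Few members had a combination peak close by. The nearest combination peak was a median of 6989 bp away, 467 members (10.6%, 9.70 to 11.5) had one within 1 kb, and 194 had none within 100 kb. The median distance to the missing list was 5235 bp for regions absent only from ATRA, 5247 bp for Corin and 3166 bp for DMSO. Within 1 kb of their missing list lay 15.5%, 15.9% and 21.4% of these sets in that order. More than 100 kb from it lay 98 of 3953, 148 of 5921 and 15 of 1536, beside 194 of 4418 members. By merged regions the combination list was the shortest, and how far list length moves these distances was not tested. Just inside the rule, 37 members had a combination peak within 150 bp, the closest at 19 bp, with a median fold of 2.95 with DMSO. Just outside it, 15 regions were called in all 4 lists with a combination −log10 p under 3, and their median fold with DMSO was 4.06.

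The 12 members with the highest lowest −log10 p over the 3 lists were named. The second of them was an intronic region of 1153 bp in DDX60L, a helicase related to an interferon-induced one, at chr4:168411307-168412459. Its pileup was 377 with DMSO, 129 with ATRA and 202 with Corin over backgrounds of 17.1, 9.12 and 13.3. The fold was 20.8, 12.8 and 14.1, lower in the lists of both compounds than in that of DMSO. The nearest combination peak was 11653 bp away.

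In an intron of RBMS1, an RNA-binding protein, the region chr2:160294323-160294908 had a fold of 12.1 with DMSO and ATRA alike and 9.82 with Corin. The lncRNA region chr7:83358683-83359893, in a gene known to the annotation by identifier alone, gave 13.2, 13.5 and 9.62. In both, the fold with ATRA was close to that with DMSO and that with Corin was lower. The pileup was lower with ATRA, at 159 against 229 with DMSO for RBMS1 and 170 against 237 for the lncRNA. So was the background, at 12.3 against 17.9 and 11.6 against 17.0. The intergenic region chr12:14327725-14328220, whose nearest coding gene was ATF7IP, a cofactor of histone methylation, gave 11.4, 9.98 and 8.13 and lay 37053 bp from a combination peak. At chr16:50961336-50962415, 55129 bp from the start of LINC02127, the fold was 11.0, 13.3 and 7.99. An intergenic region on chromosome 8, 32233 bp from the start of CFAP418-AS1, gave 17.8, 11.5 and 12.4.

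A further 4 of the 12, none at a promoter, stood on higher local background in at least 1 list. The intergenic region chr6:47165683-47166314 had a pileup of 674 with DMSO, 344 with ATRA and 664 with Corin, over backgrounds of 95.3, 63.4 and 106, with a combination peak 1814 bp away. An intron of HIP1, a clathrin adaptor, at chr7:75614347-75614701 had a background of 142 with DMSO and folds of 3.35, 3.14 and 3.05. In PIK3CG, the leukocyte PI3-kinase gamma, the intronic region chr7:106871063-106871432 had a background of 28.0 with DMSO, 69.2 with ATRA and 24.2 with Corin, and a combination peak lay 466 bp away. An intron of CALN1, a calcium-binding protein, at chr7:72403460-72404258 had a background of 38.7 with DMSO, and its fold of 8.23 with DMSO compared with 8.94 with ATRA and 6.45 with Corin. Over all members, 369 (8.35%) had a DMSO background over 3 times the commonest, against 9.89% at equal strength. The part of local background in these calls was not tested.

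**Figure D3:**
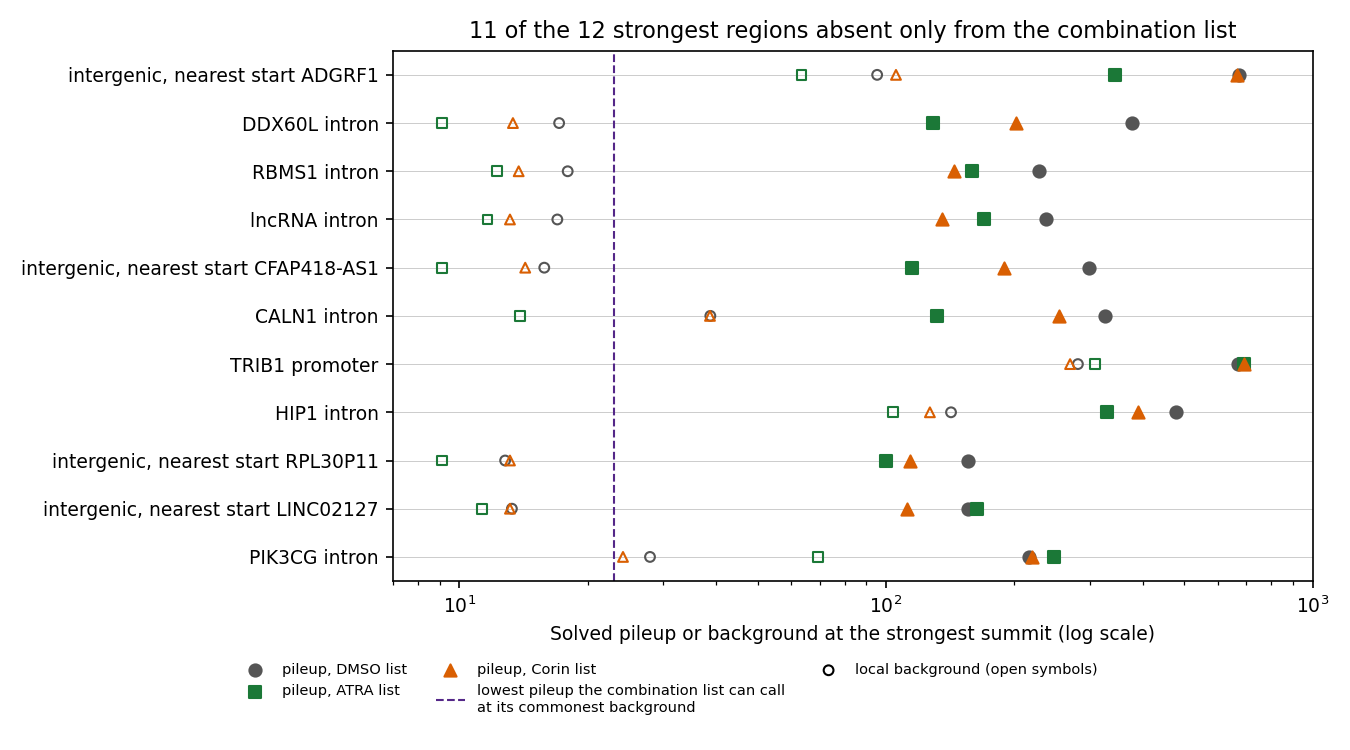
Pileup (filled symbols) and local background (open symbols) at the strongest summit, log scale, of 11 of the 12 strongest members in the DMSO, ATRA and Corin lists. DMSO has the highest pileup in 8 of the 11. The dashed line at 23 is the pileup that reaches the lowest listed −log10 p of the combination at its commonest background. It is not a limit above which a peak had to be listed, and it does not apply to the regions on higher background.

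Promoters, taken as regions within 1 kb of an annotated start, made up 627 members (14.2%, 13.2 to 15.3), against 16.0% at equal strength and 30.2% of all regions called in all 4 lists. Counted from starts of coding transcripts alone, 5.09% were promoters, and with a limit of 2.5 kb 24.3%. The strongest was the promoter of TRIB1, a pseudokinase that directs C/EBP alpha to degradation, on chromosome 8. Its pileups were level at 668 with DMSO, 691 with ATRA and 689 with Corin, over backgrounds of 282, 309 and 270, and a combination peak lay 1597 bp away. TGFB1I1, a focal adhesion adaptor, had a fold of 5.45 with DMSO, 3.50 with ATRA and 3.24 with Corin, with a combination peak 101 bp away. HOXD11, a homeobox gene, had 8.82, 8.12 and 7.20 in that order. LGR6, a receptor for R-spondins, had 5.93, 6.87 and 6.25. SLC39A13, a zinc transporter, had 3.15, 3.07 and 2.95. The nearest coding start was 2585 bp from the HOXD11 region and 2145 bp from the SLC39A13 region. By fold, TGFB1I1 alone of these 5 promoter regions differed by more than 1.5 times between DMSO and either compound. By pileup HOXD11 did as well, with 229 with DMSO and 92 with ATRA.

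The positions of members were set beside those of retained regions weighted to their strength bands. Introns held 2291 of them (51.9%, 50.4 to 53.3), against 49.5% at equal strength, exons 228 (5.16%), against 3.95%, and intergenic sequence 1272 (28.8%), against 30.6%. Of all regions, introns held 47.0%, exons 4.42% and intergenic sequence 27.9%. More than 50 kb from any start lay 415 (9.39%, 8.57 to 10.3), against 7.66%. The median width was 546 bp, against an average of 772 bp at equal strength and a median of 897 bp for regions called in all 4 lists. Combination peaks can widen only the retained regions, and a median is here set beside an average, so these widths are not like for like. The mean GC content of the summit windows was 48.4% ± 8.76 (SD over 4418 regions), against 48.3% at equal strength. By chromosome, the share of 3-list regions that were members ranged from 4.01% on chromosome 19 to 7.99% on chromosome 18. By count, the windows of 1 Mb with most members were chr2:197000001-198000000 with 12 of 69 such regions, and chr13:112000001-113000000 and chr22:37000001-38000000 with 10 each, of 36 and of 90.

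Motifs at the summits were compared with those of retained regions and of regions missing from 1 other list. All motifs were read on both strands within 200 bp. AP-1 (TGANTCA) matched 727 members (16.5%, 15.4 to 17.6), against 16.8% at equal strength and 12.3% of all regions. Regions absent only from ATRA had 23.1% and those absent only from Corin 4.46%. The members' share thus lay between the single-compound sets. In 100 bp it was 10.7%, against 12.2% at equal strength. With lists of equal length it was 12.9% in 200 bp, where no share at equal strength was computed. C/EBP (TTGCNNAA) matched 840 members (19.0%, 17.9 to 20.2), against 17.6% at equal strength and 14.5% of all regions.

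PU.1 (GAGGAAGT) was the scarcer myeloid motif among members. It matched 193 (4.37%, 3.80 to 5.01), against 7.67% at equal strength and 6.74% of all regions. Regions absent only from Corin had 12.8% and those absent only from ATRA 1.59%. The members' share was the lower one in each of the 5 lowest strength bands, at 5.15% against 5.65% in the lowest and 3.79% against 8.70% in the third. IRF, the motif of interferon regulatory factors, matched 2.42% of members against 3.38% at equal strength. RUNX (TGTGGTTT) matched 4.30% against 4.96%, with 3.82% of all regions. GFI1 (AATCACNGC) matched 13 members (0.294%, 0.172 to 0.503), against 0.782% at equal strength. In 400 bp it matched 42 members, 0.951% against 1.31%, so its ratio to retained regions moved from 0.376 to 0.724 with the window. The retinoic acid receptor repeat was found in 2 members, or 0.0453%, against 0.105% at equal strength and 0.0893% of all regions.

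CTCF and YY1, both known to join distant DNA, stood higher among members than at equal strength. CTCF matched 220 members (4.98%, 4.38 to 5.66), against 3.36% at equal strength and 3.08% of all regions. Without the weighting, 5.24% of the regions called in all 4 lists held it, which is above the members. It matched 1.59% of regions absent only from ATRA, 3.04% of those absent only from Corin and 2.60% of those absent only from DMSO. In the bands it stood at 2.11% of members against 1.26% of retained regions in the lowest, 3.94% against 2.54% in the second and 7.15% against 4.55% in the third, and the members were also above in the fourth. In the fifth band the order was not kept, with 7.10% against 7.27%. The CTCF members had a median fold of 5.29 with DMSO, 5.34 with ATRA and 3.40 with Corin, and 43.6% of them were lower with each compound than with DMSO. YY1 (AAGATGGC) matched 61 members (1.38%, 1.08 to 1.77), against 0.911% at equal strength, 1.45% of regions called in all 4 lists and 1.15% of all regions. By band, it stood at 1.48% of members against 0.514% of retained regions in the lowest and at 1.03% against 1.06% in the third.

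The strongest CTCF members lie in the windows printed above. Near CKB, a brain-type creatine kinase, chr14:103518617-103518850 had folds of 4.33 with DMSO, 4.80 with ATRA and 3.23 with Corin. The ADAMTSL4 exon region chr1:150559981-150560207 lies within 10 kb of MCL1, a survival factor of the BCL2 family, and had 3.19, 2.62 and 2.61. The PI4K2B region chr4:25180388-25180864 had 8.44, 7.61 and 7.34 and held PU.1 and RUNX matches as well. In the last 2 of these regions both compounds gave a lower fold than vehicle.

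**Figure D4:**
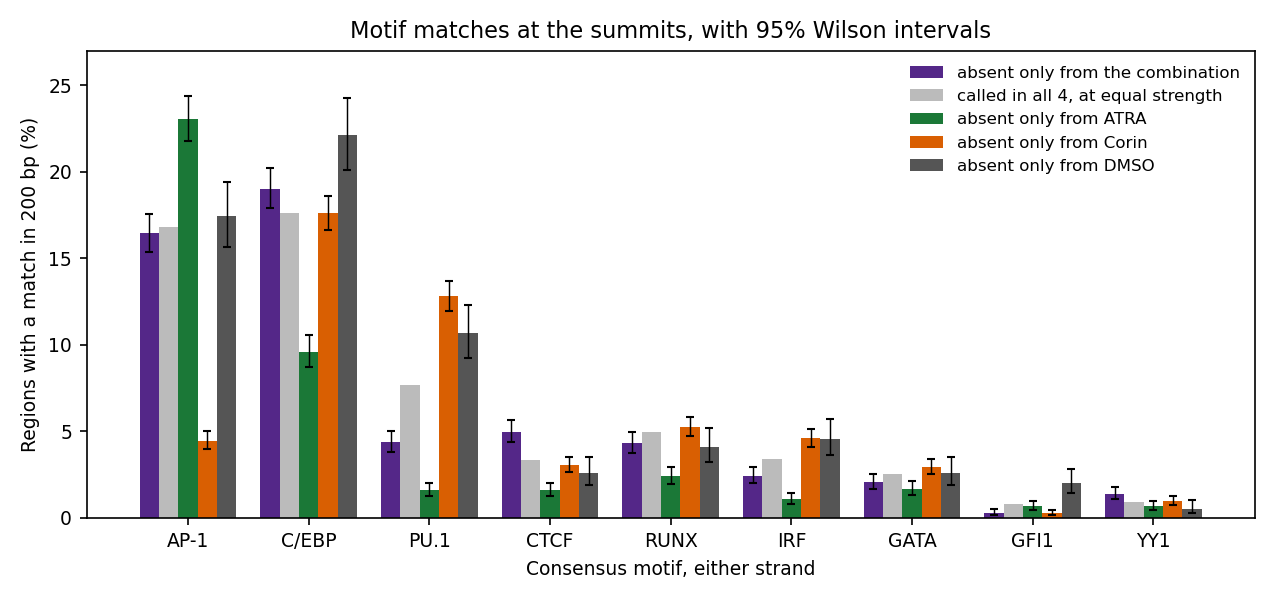
Percent of regions with a motif match in 200 bp (vertical axis) for 9 motifs in 5 sets of regions, with 95% Wilson intervals except for the equal-strength average, which has none. The members stand at 4.98% for CTCF, above the other 4 bars, and at 4.37% for PU.1, between regions absent only from ATRA (1.59%) and only from Corin (12.8%).

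Members were spread thinly over genes. They lay in the bodies of 2130 of the 12339 coding genes that held a region called in the 3 lists, and 93 genes held at least 3. The genes below were picked for the highest counts, while 6.25% of all regions called in the 3 lists were members. Long genes are among them, with TBC1D5 at 1287656 bp, RARB at 910046 bp and TRAPPC9 at 730855 bp. TBC1D5, a regulator of Rab GTPases in retrieval from endosomes, held most, with 11 of its 50 regions. Some of these, such as chr3:18382833-18383501, also lie within SATB1, so they cannot be credited to TBC1D5 alone. TRAPPC9, a subunit of a vesicle tethering complex on chromosome 8, held 6 of 17. TNS3, a focal adhesion protein, held 5 of 17. IGF2BP3, an mRNA-binding protein of fetal tissue that is active in some leukaemias, held 5 of 9, among them 2 at annotated starts. The one at chr7:23347704-23348296 had a fold of 7.43 with DMSO, 6.76 with ATRA and 5.75 with Corin, and that at chr7:23430159-23430926 had 9.47, 10.1 and 3.88.

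RARB, the retinoic acid receptor beta and itself a target of ATRA in many cells, held 5 of 10. They lie in introns between chr3:25537088 and chr3:25592950, and those at chr3:25591740-25592351 and chr3:25592450-25592950 are neighbours, 9876 and 9277 bp from the start of TOP2B. All were weak, with folds from 1.93 to 3.09 with DMSO, 2.08 to 5.04 with ATRA and 1.96 to 2.66 with Corin. RARB was named for its count out of all coding genes, so the count is a description and its distance from the 6.25% of all regions was not tested.

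Listed genes of the pathways in question were then read for members within 10 kb. The share of 3-list regions that were members is set beside 6.25% for all regions, and beside the number that the strength bands alone would give. Retinoic acid response genes had 11 members of 95 regions (11.6%, 6.59 to 19.6) at 6 of 21 genes, where the bands gave 6.53. Without RARB, a choice made after its count was seen, this was 6 of 82 (7.32%), where the bands gave 3.53. The promoter of CRABP2, which carries retinoic acid to its receptors, had a fold of 4.64 with DMSO, 6.22 with ATRA and 2.67 with Corin. RARA, the receptor alpha, had intronic members at chr17:40355061-40355314, with 4.26, 5.61 and 3.04, and at chr17:40338912-40339618, with 5.47, 3.18 and 2.94. Near PRAM1, a myeloid adaptor, the fold was 3.18, 2.73 and 2.24, and its summit held a CTCF match, as did that of CRABP2. All of these had a lower fold with Corin than with vehicle, as did 80.7% of all members. ATRA gave a higher fold for CRABP2 and for the first of the RARA regions. The CRABP2 pileup was lower with ATRA, at 116 against 187 with DMSO, over backgrounds of 17.8 and 39.5. The pileup of that RARA region was higher with ATRA, at 161 against 137 with DMSO.

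Genes of the CoREST complex and its recruiters had 5 members of 85 (5.88%) at 4 of 14 genes, where the bands gave 4.61. The intronic member of HDAC2, a deacetylase of the complex, had a fold of 8.52 with DMSO, 5.53 with ATRA and 4.03 with Corin, and that of GFI1B, a repressor that recruits LSD1, had 3.57, 4.78 and 2.74. Neuronal genes under REST and CoREST had 4 of 55 (7.27%), where the bands gave 2.54. Among them was a region at an annotated start of GRIN1, an NMDA receptor subunit, with 4.21, 3.56 and 3.50. The nearest coding start to it was that of LRRC26, 12619 bp away, so it is not the promoter of a coding GRIN1 transcript. SNAP25, of synaptic vesicle fusion, had 5.75, 8.01 and 3.25, and KCNH2, a potassium channel, 2.48, 7.39 and 2.54. Pileups with DMSO and ATRA were close, at 79 and 80 for SNAP25 and at 71 and 75 for KCNH2. The background was lower with ATRA, at 9.12 against 12.9 for SNAP25 and 9.3 against 28.0 for KCNH2.

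BCL2 family genes, which set the threshold for apoptosis, had 7 of 81 (8.64%, 4.25 to 16.8) at 4 of 15 genes, where the bands gave 4.08. BCL2, a survival factor, held 4 intronic members. The strongest, chr18:63178562-63178939, had a fold of 9.42 with DMSO, 6.62 with ATRA and 7.57 with Corin, while chr18:63129882-63130601 had 4.84, 12.4 and 2.63. The pileup of the latter was 114, 141 and 52 in that order, over backgrounds of 22.8, 10.5 and 19.2. Near BAX, which permeabilises mitochondria, a member at chr19:48963825-48964131 stood on a background of 336 with DMSO and had folds of 1.66, 2.40 and 1.96.

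Myeloid differentiation genes had 2 of 133 (1.50%, 0.413 to 5.32) at 2 of 30 genes, where the bands gave 4.27. These were near CEBPA, a master factor of granulocytes, with a fold of 2.63 with DMSO, 2.65 with ATRA and 1.88 with Corin, and near IRF8, a factor of monocytes, with 2.27, 2.35 and 2.24. Haematopoietic transcription factor genes had 9 of 255 (3.53%, 1.87 to 6.57) at 8 of 20 genes, where the bands gave 17.2. The named ones lay in introns of BACH2 (fold 8.62, 8.80 and 6.79 with DMSO, ATRA and Corin), IKZF1 (2.60, 1.82 and 1.97) and FLI1 (4.13, 4.01 and 3.54). Cell cycle genes had 1 of 108, in CDK6, and AP-1 factor genes had 0 of 54, with a Wilson upper bound of 6.64%, where the bands gave 4.05 and 1.23. Interferon response genes had 2 of 62 (3.23%), where the bands gave 1.96.

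**Figure D5:**
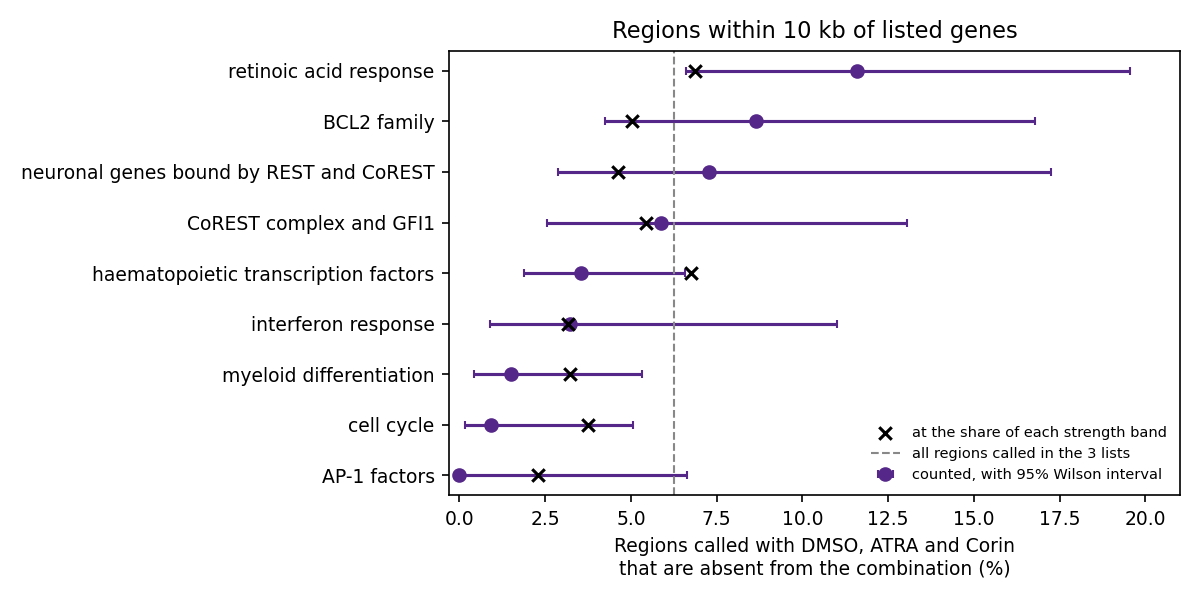
Percent of regions called with DMSO, ATRA and Corin that were absent from the combination (horizontal axis) within 10 kb of the genes of 9 lists, as counted with 95% Wilson intervals (points) and as the strength bands give (crosses). Retinoic acid response genes stand highest at 11.6% and AP-1 factor genes at 0, around the dashed line at 6.25% for all regions.

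The lists behind these values held 222491 peaks with DMSO, 222110 with ATRA, 189896 with Corin and 197548 with the combination. These are peaks before merging, and by merged regions the combination list was the shortest. At the promoters of marker genes in the DMSO list, 9 of 10 myeloid markers were called, against 1 of 4 erythroid, 2 of 4 T cell, 2 of 3 epithelial and 0 of 1 hepatocyte ones. All 4 B cell markers were also called, and an open promoter is not expression.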

How the data were processed

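ATAC-seq peaks of 8 samples in 4 groups were used as 1 deposited list per group, matched by treatment; each column pools a group, and columns of other samples numbered 0. The submitters' processing notes name hg38, cutadapt, Bowtie2, SAMtools, Picard and MACS2; settings and read depth are not given in the sources used here. Per the file headers and layout, the deposited values are a fold ratio over local background, p-values and q-values as −log10, and a display score that was not used. Background and pileup were solved from the authors' fold and −log10 p, and the pileup was whole within 0.05 for over 99.9% of peaks.

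Regions were annotated with GENCODE release 44 on hg38 (Python 3.11.15, pandas 2.3.3, SciPy 1.17.1, pysam 0.24.0). The members, gene lists and motifs were chosen with earlier results of these data known. Regions were named by rule: the 12 members with the highest lowest −log10 p, the 6 such at promoters, the 5 genes with most members and up to 3 genes per list, plus the 3 strongest CTCF members, chosen after their values were seen; some items so selected are not reported here. Percentiles were taken within a list. No test was possible with 1 list per group. Scripts were tested on simulated data. Alternatives were limits on q, merging, coverage and distance, lists of equal length, promoter limits and motif windows.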

Additional observations from a re-analysis of the deposited data

How the results depend on the processing

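No paired analysis was possible because each group has 1 pooled list, so replicates could not be left out either. The 4418 members became 2578 with lists of equal length (94917 regions each), the only setting that moved the count by over 1.5 times. Their 6.25% became 3.90% with equal length, 5.65% with −log10 q of at least 5 in all 4 lists, 5.01% with that limit in the DMSO, ATRA and Corin lists alone, 5.93% with no combination peak within 500 bp and 7.17% when peaks had to cover 50% of a region. Left without regions of DMSO background over 3 times the commonest, a setting chosen after seeing the data, it became 8.39%. At promoters lay 24.3% with a limit of 2.5 kb and 5.09% with coding starts only. Ranked by lowest fold, 7 of the 12 named regions stayed. Against the share at equal strength, CTCF stood at 1.48 times and PU.1 at 0.570 times with 200 bp, 1.52 and 0.547 with 100 bp, and 1.43 and 0.619 with 400 bp. With lists of equal length CTCF matched 6.56% of members and PU.1 4.38%, and no share at equal strength was computed for that setting. Gene list counts are small, and 12 of the 19 alternative values for them moved by over 1.5 times. Without read depth or lists per replicate, absence from the combination list means only that no peak was listed.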
